A study of Rattus norvegicus with 54 samples.

Results

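The genes of ketone body making and use described here were *Bdh1*, *Acat1*, *Oxct1* and *Slc16a1*. They were chosen by name, with earlier results of these data known. Each of the 4 genes was read by 1 probe set with a single gene symbol, of 14506 genes measured in this way. Untreated Wistar rats gave the tissue, liver or skeletal muscle of the hind limb, and its total RNA was read on Affymetrix GeneChip arrays of the Rat Gene ST design. Liver was taken from foetuses on day 16, 20 and 22 of gestation (F16, F20 and F22), from neonates on day 1 and 4 after birth (P1 and P4) and from adults on day 90 (P90), with 4 arrays per time point. Skeletal muscle was taken at F16, F18, F20, F22, P1 and P4, with 5 arrays per time point. Foetuses were delivered by Caesarean section, and whether the animals of a group shared a litter was not given in the sources used here, so that the p-values measure the spread between these samples. Values are log2 signals after robust multi-array average (RMA), on which a difference of 1 is a doubling. The tissues were normalised separately, so that levels of the 4 genes were compared between time points of 1 tissue and not between tissues.

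Ketone bodies, acetoacetate and 3-hydroxybutyrate, are made in liver mitochondria from the acetyl-CoA of fatty acid oxidation and are burned in muscle, heart and brain. They are an important fuel of the suckling rat, whose milk is rich in fat. *Bdh1* encodes the mitochondrial 3-hydroxybutyrate dehydrogenase, which converts acetoacetate and 3-hydroxybutyrate into each other. *Acat1* encodes the mitochondrial acetoacetyl-CoA thiolase, which serves both at the start of ketone body making and at the end of their use. *Oxct1* encodes the succinyl-CoA transferase that activates acetoacetate for use outside the liver. *Slc16a1* encodes the monocarboxylate transporter MCT1, which carries lactate, pyruvate and ketone bodies across cell membranes.

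In liver, *Bdh1* and *Acat1* rose together from F16 to P4, by 2.33-fold and 2.04-fold, and parted afterwards, as *Bdh1* stayed high in the adult while *Acat1* fell by 1.38 on the log2 scale, below its F16 level. *Oxct1* and *Slc16a1* did not pass the test between F16 and P4 in liver. In muscle, *Acat1* rose 1.56-fold and *Slc16a1* 1.30-fold over the same days, *Oxct1* fell by 0.17 and *Bdh1* had its highest mean at F20. The *Oxct1* probe set was dim, at percentile 15.5 of all probe sets in liver and 14.9 in muscle. Over the 6 time points of a tissue, all 4 genes passed the moderated F-test of limma in both tissues, where passing means a p of 0.05 or less after Benjamini-Hochberg adjustment. The same test was passed by 84.3% of all 15310 probe sets in liver and by 75.0% in muscle, against which the 4 of 4 is to be read. Without 9 muscle arrays that bore hepatocyte markers *Oxct1* in muscle did not pass this test (range 0.19, adjusted p = 0.0716).

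Markers were read to check the labelled tissues. The mean log2 signal of 11 hepatocyte markers lay between 11.98 and 13.04 in the liver arrays and between 6.86 and 9.12 in the muscle arrays, while that of 10 muscle markers lay between 9.32 and 11.80 in muscle and between 6.58 and 8.35 in liver. As the tissues were normalised separately, these ranges describe each tissue and are not a measured difference. Single arrays stood apart in markers of the other tissue, with a mean over 8 in 9 muscle arrays for hepatocyte markers (F16 replicates 1, 2 and 4, F18 replicate 4, F20 replicates 4 and 5, F22 replicate 2, and P4 replicates 3 and 5) and in 1 liver array for muscle markers (F22 replicate 1, at 8.35). Muscle F16 replicate 1, with the highest hepatocyte mean of its group (8.82), also had the highest *Bdh1* and *Acat1* of its group. The arrays with the highest hepatocyte mean of other groups differed in this. F20 replicate 5 (8.79) had the highest *Acat1* of its group but not the highest *Bdh1*. F18 replicate 4 (8.83) and P4 replicate 3 (9.12) had the lowest *Acat1* of theirs, and F22 replicate 2 (8.55) was at neither end for both genes. Without the 10 arrays with a mean over 8, an alternative chosen after seeing the data, all calls of the 4 genes in liver were kept, and those in muscle that were lost are given beside the results. Medians of single arrays were 7.06 to 7.16 (liver) and 7.98 to 8.07 (muscle), and each array correlated with its group mates at a mean r between 0.983 and 0.997. The lowest of these correlations was that of liver P1 replicate 1. Changes of the 4 genes from F22 to P1 in liver, and those of *Oxct1* and *Slc16a1* from F20 to P1, are therefore given with and without it. Identical values were found in 0 pairs of arrays.

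The starts of the 4 genes are shown because 2 of them rose together in liver and the other 2 did not. Each line gives the 250 bases before 1 annotated start of the gene, 5′ to 3′ on the strand of the gene, from RefSeq on build GRCr8, in lower case with matches to 6 short motifs in capitals. Searched on both strands were the GC box GGGCGG, the box CCAAT, the core of the TATA box as TATAAA, the E-box CACGTG, the nuclear receptor element AGGTCA and the motif TGCGCA known from NRF1 sites, and no match overlapped another.
*Bdh1*, chr11:82842637-82842886, minus strand: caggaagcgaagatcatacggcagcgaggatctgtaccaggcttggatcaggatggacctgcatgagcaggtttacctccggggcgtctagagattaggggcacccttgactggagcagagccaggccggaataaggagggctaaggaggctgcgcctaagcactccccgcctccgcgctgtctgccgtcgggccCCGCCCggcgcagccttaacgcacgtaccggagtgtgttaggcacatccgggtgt
*Acat1*, chr8:62905043-62905292, minus strand: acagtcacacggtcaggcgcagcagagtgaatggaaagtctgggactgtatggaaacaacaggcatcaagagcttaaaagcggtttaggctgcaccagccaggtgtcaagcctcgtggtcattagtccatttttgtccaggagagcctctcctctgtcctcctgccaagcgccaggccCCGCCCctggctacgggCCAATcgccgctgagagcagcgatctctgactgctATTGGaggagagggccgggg
*Oxct1*, chr2:54963714-54963963, plus strand: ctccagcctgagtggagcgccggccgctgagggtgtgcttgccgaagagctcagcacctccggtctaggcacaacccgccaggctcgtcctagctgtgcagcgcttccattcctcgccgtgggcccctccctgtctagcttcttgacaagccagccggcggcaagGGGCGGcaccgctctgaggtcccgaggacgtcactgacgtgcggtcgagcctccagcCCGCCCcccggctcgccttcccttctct
*Slc16a1*, chr2:194812410-194812659, plus strand: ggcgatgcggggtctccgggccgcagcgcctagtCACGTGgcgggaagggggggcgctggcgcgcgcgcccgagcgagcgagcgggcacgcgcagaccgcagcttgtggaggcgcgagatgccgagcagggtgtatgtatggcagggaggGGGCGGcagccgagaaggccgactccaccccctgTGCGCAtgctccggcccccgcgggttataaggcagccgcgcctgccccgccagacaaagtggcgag

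GGGCGG stood in all 4 windows and in 30.5% of all 33469 windows of the same length in the RefSeq table. The windows were rich in G and C, at 62.8% for *Bdh1*, 58.4% for *Acat1*, 68.8% for *Oxct1* and 74.0% for *Slc16a1*, against a median of 51.2% over all windows. CCAAT was found in the window of *Acat1*, 2 times, and in 34.0% of all windows. CACGTG and TGCGCA were found in the window of *Slc16a1*, and in 5.6% and 6.1% of all windows. TATAAA and AGGTCA, which 12.9% and 14.1% of all windows held, were in none of the 4. No motif other than GGGCGG was common to the windows shown for *Bdh1* and *Acat1*. The genes span 42009 bases (*Bdh1*, chr11:82806125-82848133), 29078 bases (*Acat1*, chr8:62876003-62905080), 148340 bases (*Oxct1*, chr2:54963964-55112303) and 27411 bases (*Slc16a1*, chr2:194805556-194832966). By these spans the windows of *Bdh1* and *Slc16a1* lie inside their genes, before an internal start. The window of *Acat1* lies partly inside its gene, which ends at 62905080, and so also stands before an internal start. Matches in these windows hold for the start shown only, and other starts are not shown.

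*Bdh1*, the dehydrogenase that sets the balance of both ketone bodies, rose in liver through late gestation and birth. Its 4 arrays read 10.04, 10.35, 10.12 and 9.89 at F16, and 10.36, 10.36, 10.25 and 10.32 at F20. At F22 they read 10.75, 10.80, 10.78 and 10.55, and at P1 10.94, 11.39, 11.21 and 11.45. They read 11.30, 11.28, 11.31 and 11.39 at P4, and 11.45, 11.42, 11.39 and 11.48 at P90. Every F22 array lay above every F16 and F20 array and below every P1 array, while the F16 and F20 arrays overlapped, as did those of P1 and P4. From F16 to P4 the change was +1.22 on the log2 scale (SE 0.0922, limma, adjusted p = 5.74e-11). The step from F20 to F22 was +0.40 (adjusted p = 0.0013) and that from F22 to P1 +0.52 (adjusted p = 7.34e-05). Without P1 replicate 1, the lowest of its group, the step across birth was +0.63 (adjusted p = 1.71e-06). The means followed the order of age, and the neighbours F16 and F20, P1 and P4, and P4 and P90 did not pass (adjusted p = 0.0903, 0.684 and 0.288), the last with all adult arrays above all P4 arrays.

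*Acat1*, the thiolase of both the making and the use of ketone bodies, rose in liver at the same steps. The arrays read 11.46, 11.62, 11.23 and 11.24 at F16, and 11.60, 11.55, 11.50 and 11.56 at F20. They read 11.96, 11.92, 12.03 and 11.95 at F22, and 12.19, 12.47, 12.49 and 12.41 at P1. At P4 they read 12.34, 12.49, 12.42 and 12.42, and at P90 11.03, 11.05, 10.99 and 11.06. The adult arrays lay below all others of the tissue, those of F16 included, and the F22 arrays stood apart from both F20 and P1. *Acat1* rose by 1.03 from F16 to P4 (SE 0.0734, limma, adjusted p = 2.15e-11), by 0.41 between F20 and F22 (adjusted p = 8.58e-05) and by 0.42 across birth, F22 to P1 (adjusted p = 6e-05). Without liver P1 replicate 1 the last of these was +0.49 (adjusted p = 5.73e-06). Between P4 and P90 it fell by 1.38 (SE 0.0734, adjusted p = 1.36e-13), a level 2.61-fold lower in the adult, and the adult lay below F16 by 0.35 (log2 change -0.35, adjusted p = 0.000163). F16 and F20 did not differ beyond their error (adjusted p = 0.126), nor did P1 and P4 (adjusted p = 0.874).

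**Figure D1:**
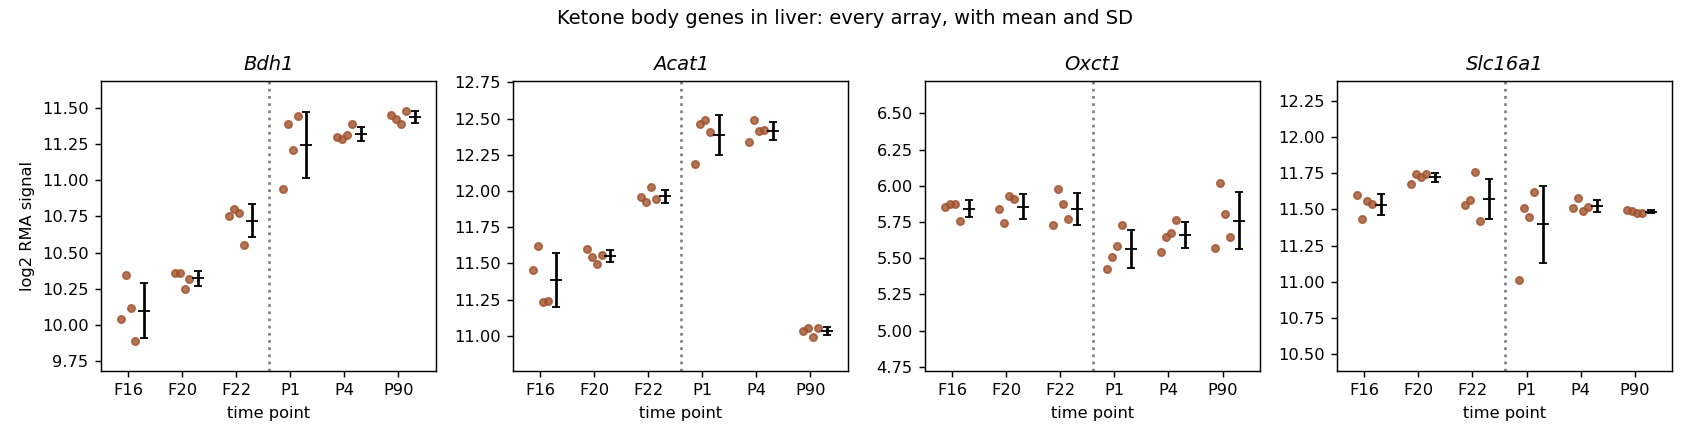
Log2 RMA signal (y axis) of *Bdh1*, *Acat1*, *Oxct1* and *Slc16a1* in the liver at each time point (x axis), with each of the 4 arrays of a group as a point and the mean with its SD as a black bar beside them. The dotted line marks birth, all panels span the same number of log2 units, and *Acat1* drops to about 11.03 at P90 while *Bdh1* stays near 11.44.

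*Oxct1*, the transferase that lets tissues use acetoacetate, is known to be scarce in hepatocytes, and its probe set was dim. Averaged over the arrays it stood at percentile 15.5 of all probe sets in liver and at percentile 14.9 in muscle, a range in which RMA compresses changes. The liver arrays read 5.86, 5.88, 5.88 and 5.75 at F16, and 5.84, 5.74, 5.93 and 5.91 at F20. At F22 they read 5.73, 5.98, 5.88 and 5.77, and at P1 5.43, 5.51, 5.58 and 5.73. They read 5.55, 5.65, 5.68 and 5.76 at P4, and 5.57, 6.02, 5.80 and 5.65 at P90. The 3 foetal groups overlapped each other, and the F22 and P1 groups overlapped by 1 pair of arrays at 5.73, F22 replicate 1 and P1 replicate 4. *Oxct1* fell by 0.28 between F22 and P1 (SE 0.0839, limma, adjusted p = 0.0115), and by 0.23 without P1 replicate 1 (adjusted p = 0.0414). Without F22 replicate 2 it no longer passed (log2 change -0.23, adjusted p = 0.0501). From F20 to P1, the highest and lowest means, it fell by 0.29 with no overlap (adjusted p = 0.00479), and by 0.25 without P1 replicate 1 (adjusted p = 0.0206). This pair was picked by its means, a choice for which neither the adjusted p nor the lack of overlap accounts. The change from F16 to P4 was -0.18 and did not pass (adjusted p = 0.0687), though it did without P4 replicate 4 (-0.22, adjusted p = 0.047) or P90 replicate 2 (-0.18, adjusted p = 0.0368).

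*Slc16a1*, the gene of the transporter MCT1, stayed within a range of 0.32 between its highest and lowest liver means. The arrays read 11.60, 11.43, 11.56 and 11.54 at F16, and 11.67, 11.74, 11.72 and 11.75 at F20. At F22 they read 11.53, 11.57, 11.76 and 11.42, and at P1 11.02, 11.51, 11.44 and 11.62. They read 11.51, 11.58, 11.49 and 11.52 at P4, and 11.50, 11.49, 11.47 and 11.48 at P90. The F20 arrays were high and lay above all those of F16, P1, P4 and P90, while P1 replicate 1 was low. From F20 to P1 *Slc16a1* fell by 0.32 (SE 0.088, limma, adjusted p = 0.00316), and by 0.20 without P1 replicate 1 (adjusted p = 0.0105). These are its highest and lowest means, and the adjusted p does not account for the choice of that pair. The change from F16 to P4 was -0.01 (adjusted p = 0.953) and that from F22 to P1 -0.17 (adjusted p = 0.138), or -0.05 without P1 replicate 1 (adjusted p = 0.631) and -0.25 without P1 replicate 4 (adjusted p = 0.0327). The F-test over the 6 time points passed narrowly (adjusted p = 0.041) and was lost on leaving out any of 12 arrays, namely F16 replicate 3, each F20 array, F22 replicate 2, P1 replicate 3, P4 replicate 4 and each P90 array, with ranges of 0.32 to 0.34 and adjusted p up to 0.0956.

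Set against all probe sets, the liver calls were as follows. From F16 to F20 0 of the 4 genes passed, where 22.4% of all probe sets did, and 3 had an unadjusted p under 0.05 (*Bdh1*, *Acat1* and *Slc16a1*). From F20 to F22 2 of 4 passed against 36.9%, and over F16 to F22 2 of 4 against 48.3%. From F22 to P1 3 of 4 passed against 36.7%. From P1 to P4 0 passed against 11.0%, with 0 at an unadjusted p under 0.05. From P4 to P90 1 of 4 passed against 55.9%. Between F16 and P4 2 of 4 passed against 58.0%, and the share of all probe sets was 73.5% for F16 to P90, in which *Bdh1* and *Acat1* passed in opposite directions, and 53.4% for F20 to P1, in which all 4 passed. F20 and P1 held the highest and lowest liver means of *Oxct1* and *Slc16a1*. The 4 of 4 on that pair is therefore not to be read against the 53.4%.

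Cell type markers moved in the same liver arrays. From F16 to P4 all 11 hepatocyte markers rose, with a median of +0.63 against -0.03 for all probe sets, and all 9 measured erythroid markers fell, with a median of -1.20. The mean level of the erythroid markers ran from 11.97 to 12.03 in the F16 arrays, from 10.87 to 11.13 at P4 and from 7.07 to 7.22 at P90, while that of the hepatocyte markers ran from 11.98 to 12.04, from 13.01 to 13.04 and from 13.01 to 13.03. *Gata1*, the erythroid transcription factor, fell by 1.78 from F16 to P4. All 10 macrophage markers (median +1.73) and all 5 endothelial markers (median +0.75) rose as well, as did 6 of 8 adipocyte markers (median +0.61), while 5 of 6 fibroblast markers fell (median -0.57). The macrophage mean ran from 7.63 to 7.78 at F16 and from 9.43 to 10.11 at P4, the endothelial mean from 8.52 to 8.71 and from 9.16 to 9.32, the adipocyte mean from 6.75 to 6.94 and from 7.72 to 7.77, and the fibroblast mean from 8.49 to 9.83 and from 8.34 to 8.64. Among hepatocyte markers *Asgr1*, a receptor of mature hepatocytes, rose by 4.66. The part of cell composition in the changes of *Bdh1* and *Acat1* was not tested. In bulk tissue fewer cells of a type and less RNA per cell cannot be told apart. Between P4 and P90, when *Acat1* fell, the hepatocyte median was +0.03, with 1 of 11 markers higher and 2 lower, and 6 of 10 macrophage markers fell (median -0.38). All 9 erythroid markers fell (median -3.49), as did 3 of 6 fibroblast (median -0.49) and 3 of 5 endothelial markers (median -0.40). Of 8 adipocyte markers 3 rose and 3 fell.

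In muscle *Acat1* rose step by step. Its 5 arrays read 10.38, 10.13, 10.26, 10.21 and 10.23 at F16, and 10.32, 10.32, 10.38, 10.24 and 10.31 at F18. At F20 they read 10.51, 10.57, 10.52, 10.64 and 10.65, and at F22 10.62, 10.58, 10.59, 10.59 and 10.50. They read 10.83, 10.91, 10.76, 10.74 and 10.88 at P1, and 10.87, 10.87, 10.72, 10.93 and 11.04 at P4. The arrays fell into 3 tiers without overlap, F16 with F18, F20 with F22, and P1 with P4. *Acat1* rose by 0.64 from F16 to P4 (SE 0.0523, limma, adjusted p = 9.58e-12), by 0.27 between F18 and F20 (adjusted p = 0.000274) and by 0.25 across birth, F22 to P1 (adjusted p = 0.00107). It also rose by 0.26 from F18 to F22 (adjusted p = 0.000131) and by 0.25 from F20 to P1 (adjusted p = 0.000359), the neighbouring means in the order of level. Within the tiers the adjusted p were 0.332, 0.994 and 0.414. Without the 9 muscle arrays bearing hepatocyte markers the rise from F16 to P4 was +0.65 (adjusted p = 2.04e-08).

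Other markers rose in muscle at the steps at which *Acat1* rose, and muscle markers also at steps at which *Acat1* did not pass. From F16 to F18 6 of 10 muscle markers rose and 1 fell (median +0.58), where 33.4% of all probe sets passed. From F20 to F22 7 of 10 rose and 1 fell (median +0.38), where 19.8% of all probe sets passed. Between F18 and F20 7 of 10 muscle markers (median +0.65) and 6 of 10 macrophage markers (median +0.41) rose, the muscle mean running from 10.00 to 10.38 at F18 and from 10.81 to 11.30 at F20, and the macrophage mean from 7.96 to 8.09 and from 8.21 to 8.63. From F18 to F20 3 of 5 keratinocyte markers rose as well (median +0.59), and 3 of 6 fibroblast markers rose while 1 fell (median +0.19). Of all probe sets 30.6% passed at that step. Across birth 7 of 8 adipocyte markers rose (median +1.28), where 18.3% of all probe sets passed. The adipocyte mean lay between 7.70 and 8.32 at F22 and between 8.10 and 9.84 at P1. The 3 P1 arrays with the highest adipocyte means (replicates 5, 2 and 1) were also the 3 highest for *Acat1*. The part of muscle fibres and of other cells in the *Acat1* values was not tested.

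*Bdh1*, which oxidises 3-hydroxybutyrate where ketone bodies are used, varied more between muscle arrays of a group. They read 9.09, 8.84, 8.90, 8.71 and 8.64 at F16, and 9.16, 9.08, 9.02, 9.10 and 9.10 at F18. At F20 they read 9.16, 9.84, 9.31, 9.03 and 9.33, and at F22 9.25, 9.24, 8.93, 9.33 and 8.90. They read 9.23, 8.86, 9.20, 8.79 and 9.18 at P1, and 8.82, 9.09, 8.99, 8.99 and 9.05 at P4. F20 replicate 2 was the highest of the 30 arrays, and every pair of neighbouring time points overlapped. *Bdh1* rose by 0.50 from F16 to F20 (SE 0.116, limma, adjusted p = 0.000639), with overlap between the groups. It fell by 0.35 from F20 to P4 (adjusted p = 0.0143), again with overlap. Both pairs hold F20, the highest mean, and the adjusted p does not account for that choice. The fall from F20 to P4 was not refitted with arrays left out, so that its dependence on F20 replicate 2 (9.84) was not tested. The change from F16 to F22 was +0.29 (adjusted p = 0.0327) and did not pass without F16 replicate 4 or 5 or F22 replicate 1, 2 or 4, at +0.24 to +0.27 and adjusted p of 0.0739 to 0.0963, nor without the 9 arrays bearing hepatocyte markers (+0.33, adjusted p = 0.11). From F16 to P4 it was +0.15 and did not pass (adjusted p = 0.273), nor did the step from F22 to P1 (-0.07, adjusted p = 0.75).

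Markers of skin epithelium rose in muscle between F16 and F20, as *Bdh1* did, and stayed high afterwards. The mean level of 5 measured keratinocyte markers ran from 8.94 to 9.80 at F16, from 11.39 to 12.05 at F20, from 11.70 to 12.13 at P1 and from 11.60 to 11.86 at P4, and averaged 11.86 at F22. All 5 rose from F16 to F18, and their mean was highest at P1, after the F20 peak of *Bdh1*. *Krt1*, a keratin of the upper epidermis, rose by 4.00 from F16 to P4. The genes whose muscle pattern was most like that of *Bdh1* were *Aacs*, which uses acetoacetate for lipid synthesis in the cytosol, *Rab3d* and *Grhl3*, with Pearson's r of 0.747, 0.727 and 0.727 over 30 arrays. The part of epithelial RNA and of other cells in the *Bdh1* values was not tested.

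*Oxct1* was dim in muscle as well, at percentile 14.9 of all probe sets, and its signal drifted down. Whether so small a drift of a dim probe set reflects the transcript was not tested. The arrays read 6.46, 6.52, 6.51, 6.53 and 6.50 at F16, and 6.41, 6.49, 6.44, 6.45 and 6.49 at F18. At F20 they read 6.53, 6.48, 6.43, 6.40 and 6.42, and at F22 6.36, 6.49, 6.41, 6.39 and 6.36. They read 6.36, 6.42, 6.47, 6.38 and 6.34 at P1, and 6.19, 6.31, 6.37, 6.45 and 6.33 at P4. Neighbouring groups overlapped throughout, and no step between neighbouring ages passed. *Oxct1* fell by 0.17 from F16 to P4 (SE 0.0424, limma, adjusted p = 0.000794), with all P4 arrays below all F16 arrays. The fall of 0.10 from F16 to F22 (log2 change -0.10, adjusted p = 0.045) did not pass without F16 replicate 2, 3, 4 or 5, F22 replicate 1, 3, 4 or 5, P1 replicate 4 or F18 replicate 3 or 4, with changes of -0.09 to -0.10 and adjusted p up to 0.0972, nor without the 9 arrays bearing hepatocyte markers (-0.13, adjusted p = 0.107).

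**Figure D2:**
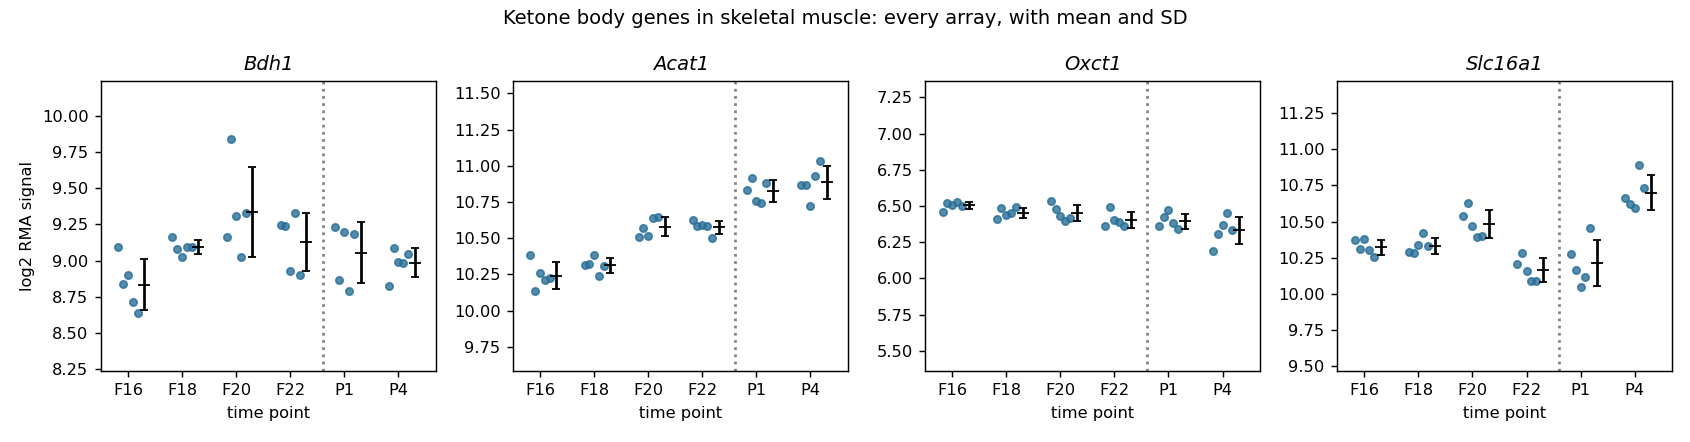
Log2 RMA signal (y axis) of *Bdh1*, *Acat1*, *Oxct1* and *Slc16a1* in skeletal muscle at each time point (x axis), with each of the 5 arrays of a group as a point and the mean with its SD as a black bar beside them. The dotted line marks birth, *Acat1* climbs in 3 tiers, and *Slc16a1* dips at F22 and P1 and is highest at P4.

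*Slc16a1*, the transporter gene, spanned a range of 0.53 between its muscle means. Its arrays read 10.37, 10.31, 10.38, 10.30 and 10.26 at F16, and 10.29, 10.29, 10.34, 10.42 and 10.33 at F18. At F20 they read 10.54, 10.63, 10.47, 10.39 and 10.40, and at F22 10.21, 10.28, 10.16, 10.09 and 10.09. They read 10.27, 10.16, 10.05, 10.12 and 10.45 at P1, and 10.66, 10.62, 10.59, 10.89 and 10.73 at P4. All F22 arrays lay below all F20 arrays, all P4 arrays lay above all P1 arrays, and P1 replicate 5 stood above the rest of its group. *Slc16a1* fell by 0.32 from F20 to F22 (SE 0.0646, limma, adjusted p = 0.00076) and rose by 0.49 from P1 to P4 (SE 0.0646, adjusted p = 1.18e-06). Its P4 level exceeded that of F22, the lowest mean, by 0.53 (adjusted p = 2.02e-07) and that of F20, the next highest, by 0.21 (adjusted p = 0.00732), the latter lost without the 9 arrays bearing hepatocyte markers (+0.18, adjusted p = 0.104). Both pairs were picked by the order of the means, for which the adjusted p does not account. From F16 to P4 *Slc16a1* rose by 0.38 (adjusted p = 9.27e-06), and F22 and P1 did not differ beyond their error (adjusted p = 0.711). The fall of 0.16 from F16 to F22 (log2 change -0.16, adjusted p = 0.037) did not pass without F16 replicate 1 or 3 or F22 replicate 3, 4 or 5, with changes of -0.14 to -0.16 and adjusted p of 0.0584 to 0.0906, nor without those 9 arrays (-0.18, adjusted p = 0.113).

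The rise of *Slc16a1* after birth came with red cell markers. MCT1 is also carried by red blood cells. Of the 9 measured erythroid markers 8 rose in muscle from P1 to P4, with a median of +1.50 against +0.02 for all probe sets, of which 33.9% passed. *Alas2*, the erythroid enzyme of haem synthesis, did not pass (-0.44, adjusted p = 0.175). The mean level of the 9 markers ran from 8.84 to 9.16 in the P1 arrays and from 10.50 to 10.81 at P4. *Rhag*, a red cell membrane protein, rose by 4.20 and *Slc4a1*, the red cell anion exchanger, by 2.23. P1 replicate 5, the highest P1 array for *Slc16a1*, had the lowest erythroid mean of its group. The genes most like *Slc16a1* in muscle were *Slc43a1*, an amino acid transporter, *Cpox*, an enzyme of haem synthesis, and *Lbr*, the lamin B receptor, with r of 0.871, 0.836 and 0.831 over 30 arrays. In liver the erythroid mean was 11.99 at F16 and 7.14 at P90, while *Slc16a1* changed by -0.05 between them (limma, adjusted p = 0.634). The part of red cells in the *Slc16a1* change in muscle was not tested. In the muscle fall from F20 to F22 0 of the 9 erythroid markers passed (median -0.12).

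**Figure D3:**
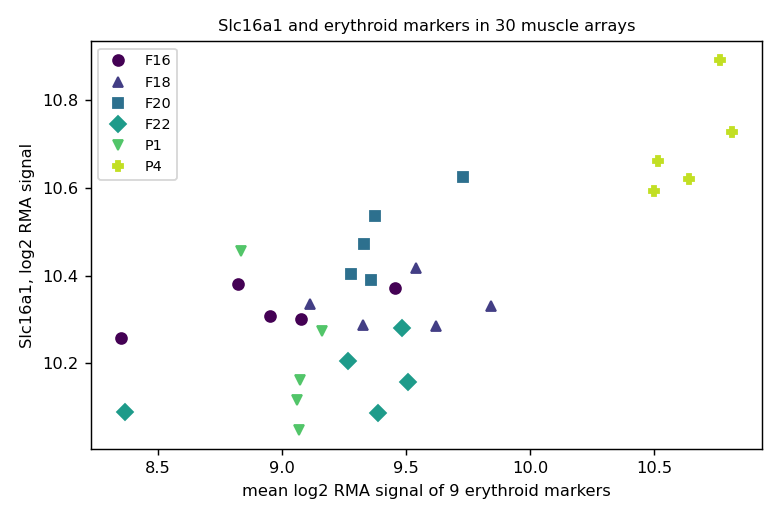
Log2 RMA signal of *Slc16a1* (y axis) against the mean log2 RMA signal of 9 erythroid markers (x axis) in the 30 muscle arrays, with 1 point per array and 1 symbol per time point. The 5 P4 arrays lie at 10.50 to 10.81 on the x axis and at or above 10.59 on the y axis, and the other time points lie at 9.84 or less on the x axis.

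Set against all probe sets, the muscle calls were as follows. From F16 to F18 0 of the 4 genes passed, where 33.4% of all probe sets did, and *Bdh1* had an unadjusted p of 0.0351. From F18 to F20 1 of 4 passed against 30.6%, from F20 to F22 1 of 4 against 19.8%, from F22 to P1 1 of 4 against 18.3%, and from P1 to P4 1 of 4 against 33.9%. Over F16 to F22 all 4 passed against 55.7%, with 3 of these 4 calls lost on leaving out single arrays, as given above. Between F16 and P4 3 of 4 passed against 61.8%. The shares of all probe sets for the other pairs used were 48.4% for F16 to F20, 44.4% for F18 to F22, 39.2% for F20 to P1, 47.2% for F20 to P4 and 37.8% for F22 to P4.

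The changes of the 4 genes were then compared between tissues in 1 fit of all 54 arrays. Whether liver and muscle of the same age came from the same animals or litters was not given in the sources used here. The fit treats all arrays as independent. Between F16 and P4 *Bdh1* rose more in liver than in muscle, by 1.07 on the log2 scale (SE 0.157, limma, adjusted p = 8.67e-08), and *Acat1* by 0.39 (adjusted p = 0.000154). The change of *Slc16a1* was lower in liver by 0.38 (log2 difference -0.38, adjusted p = 0.00199), and that of *Oxct1* did not differ detectably (-0.01, SE 0.0876, adjusted p = 0.934). From F22 to P1 *Bdh1* differed by +0.60 (adjusted p = 0.00235), or +0.70 without liver P1 replicate 1 (adjusted p = 0.000366). *Oxct1* differed by -0.27 over the same step (adjusted p = 0.0146), by -0.22 without liver P1 replicate 1 (adjusted p = 0.0458), and no longer passed without liver F22 replicate 2 (-0.22, adjusted p = 0.0541). *Acat1* did not pass there (+0.18, adjusted p = 0.118) but did without liver P1 replicate 1 (+0.24, adjusted p = 0.0204), and *Slc16a1* did not pass (-0.22, adjusted p = 0.118) with a difference of -0.09 without liver P1 replicate 1 (adjusted p = 0.491) and of -0.29 without liver P1 replicate 4 (adjusted p = 0.033).

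From F16 to F22 *Acat1* passed, with a difference of +0.24 (adjusted p = 0.0195), but not without liver F16 replicate 3 or 4 (+0.19 in both cases, adjusted p = 0.0779 and 0.0731), nor without the 10 arrays bearing markers of the other tissue (+0.25, adjusted p = 0.0525). The *Bdh1* difference was larger, at +0.33, and did not pass (adjusted p = 0.0863), though it did after renewed quantile normalisation (+0.40, adjusted p = 0.0276). Over all probe sets 57.8% differed between tissues from F16 to P4, 32.0% from F22 to P1 and 45.7% from F16 to F22, against 3, 2 and 1 of the 4 genes.

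**Figure D4:**
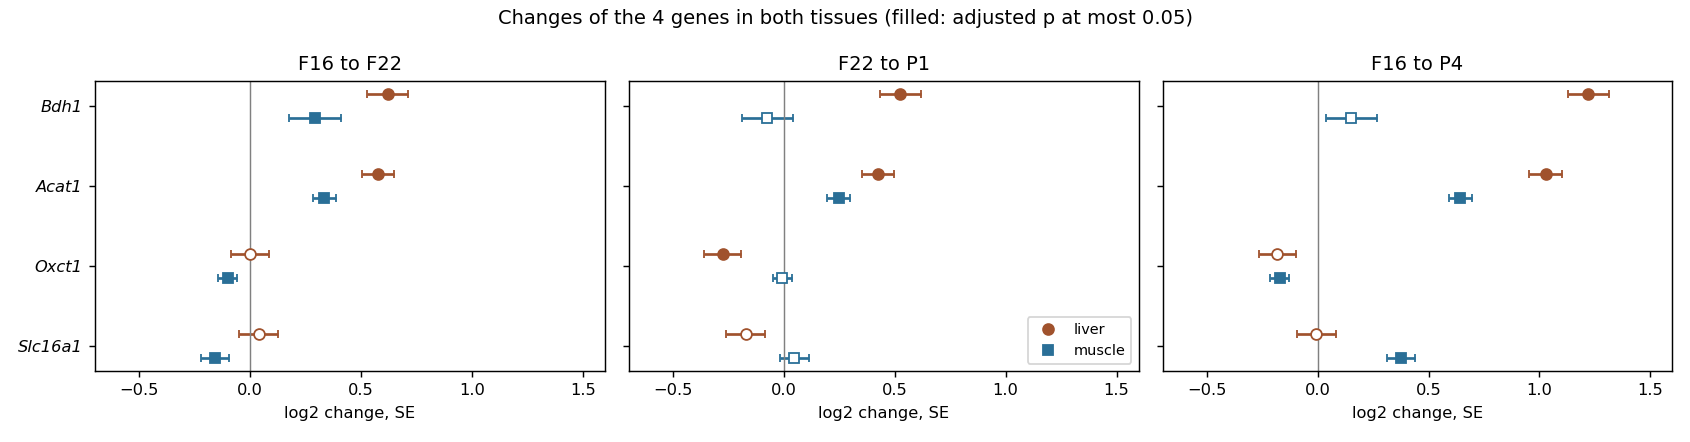
Log2 change (x axis, with SE) of each of the 4 genes (y axis) in liver (circles) and muscle (squares) from F16 to F22, from F22 to P1 and from F16 to P4, filled where the adjusted p was at most 0.05. *Bdh1* and *Acat1* change most in liver, at +1.22 and +1.03 from F16 to P4, and *Slc16a1* rises in muscle (+0.38) with no change in liver that passed.

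The genes whose liver pattern was most like that of each of the 4 were found among all probe sets with 1 symbol, as a description over 24 arrays normalised together. For *Bdh1* these were *Lcat*, the plasma enzyme of cholesterol esterification, *Slc25a23*, a mitochondrial carrier, and *Hao1*, a liver peroxisomal oxidase, with r of 0.986, 0.984 and 0.982. For *Acat1* they were *Mfge8*, *Abcd2*, a peroxisomal transporter of fatty acids, and *Cyyr1*, with r of 0.976, 0.973 and 0.971, and *Abcd2* shared the adult drop, with a mean of 6.09 at F16, 10.94 at P4 and 5.33 at P90. For *Oxct1* the highest r was 0.788 (*Mea1*), followed by *Tex21* (0.738) and *Arl6ip1* (0.719). For *Slc16a1* it was 0.817 (*Slc35b1*), followed by *Kbtbd3* (0.814) and *Kctd5* (0.810). In muscle *Acat1* was most like *Sod2*, the mitochondrial superoxide dismutase, *Emc7* and *Cav2* (r of 0.973, 0.966 and 0.965), and *Oxct1* most like *Rlbp1*, *Nol4* and *Gpr137c* (r of 0.789, 0.788 and 0.781). Between *Bdh1* and *Acat1* themselves r was 0.326 in the 24 liver arrays, which include the adult, and 0.164 in the 30 muscle arrays.

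Of 16 other genes listed for ketone body handling, 10 were measured and the rest were not analysed here. Between F16 and P4 2 of the 10 rose and 4 fell in liver, with a median of -0.06 against -0.03 for all probe sets, of which 58.0% passed. The largest rise was that of *Slc16a7*, the monocarboxylate transporter MCT2, with arrays between 7.99 and 8.29 at F16, between 10.00 and 10.28 at P4 and between 11.14 and 11.23 at P90 (F16 to P4 +2.05, SE 0.193, limma, adjusted p = 2.56e-09). *Bsg*, the basigin chaperone of MCT1, rose by 0.26 (adjusted p = 0.000216), while *Emb*, embigin, the partner of MCT2, fell by 0.68 (adjusted p = 3.59e-07) and changed by -4.34 from P4 to P90 (adjusted p = 1.86e-21). *Slc16a3*, the transporter MCT4, fell by 1.47 (adjusted p = 4.45e-09).

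Enzymes of acetoacetyl-CoA in the cytosol were measured beside the mitochondrial *Acat1*. *Acat2*, the cytosolic thiolase of sterol synthesis, fell by 2.49 from F16 to P4 (SE 0.28, limma, adjusted p = 4.57e-08), from arrays between 10.72 and 10.78 to arrays between 8.09 and 8.35, and rose by 1.84 from P4 to P90 (adjusted p = 6.22e-06). *Aacs*, the cytosolic acetoacetyl-CoA synthetase, fell by 0.74 (adjusted p = 4.65e-06) and rose by 0.88 to P90 (adjusted p = 5.18e-07). *Bdh2*, a cytosolic dehydrogenase, did not pass from F16 to P4 (+0.02, adjusted p = 0.884) and rose by 1.70 from P4 to P90 (adjusted p = 2.37e-13). *Slc16a6*, the transporter MCT7 that exports 3-hydroxybutyrate from hepatocytes in zebrafish, changed by +0.17 from F16 to P4 (adjusted p = 0.246), rose by 0.50 across birth, F22 to P1 (adjusted p = 0.00197, or +0.61 without P1 replicate 1, adjusted p = 0.000181) and fell by 2.38 from P4 to P90 (adjusted p = 6.01e-14). *Oxct2b* and *Slc16a8* were dim and did not pass from F16 to P4 (-0.14 and +0.16, adjusted p = 0.0872 and 0.142).

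Of the same 10, 6 rose and 3 fell in muscle between F16 and P4, with a median of +0.29 against -0.04 for all probe sets, of which 61.8% passed. *Slc16a6* rose most, by 2.64 (SE 0.107, limma, adjusted p = 4.06e-18), from arrays between 7.40 and 7.73 to arrays between 10.02 and 10.46. *Emb* rose by 1.41 and *Slc16a7* by 1.21 (adjusted p = 5.1e-08 and 1.14e-11), and *Slc16a3*, *Oxct2b* and *Aacs* rose by 0.52, 0.32 and 0.25 (adjusted p = 0.00018, 8e-05 and 0.0351). *Acat2* fell by 1.50 (adjusted p = 5.87e-13), *Bdh2* fell by 1.10 (adjusted p = 3.73e-12) and *Bsg* fell by 0.12 (adjusted p = 0.0215). *Slc16a8* did not pass (-0.15, adjusted p = 0.154).

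**Figure D5:**
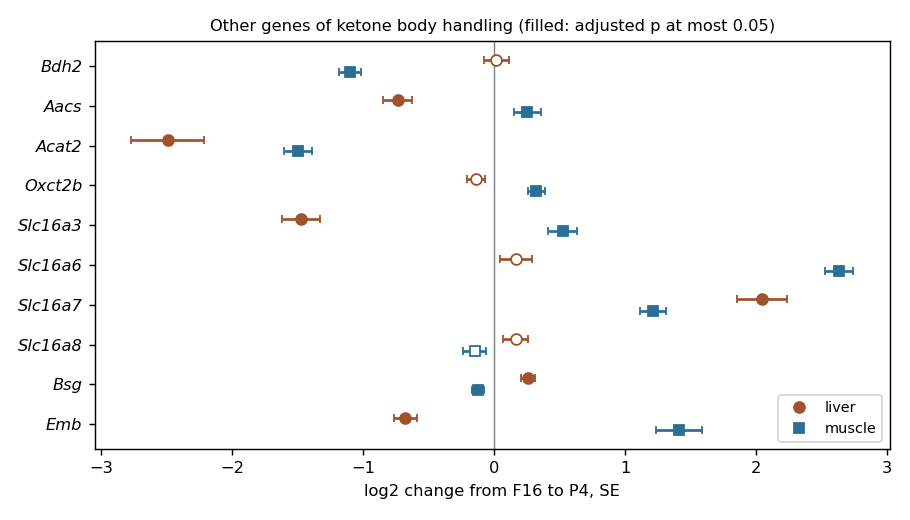
Log2 change from F16 to P4 (x axis, with SE) of the 10 measured other genes of ketone body handling (y axis) in liver (circles) and muscle (squares), filled where the adjusted p was at most 0.05. *Acat2* falls in both tissues (log2 change -2.49 and -1.50), *Slc16a7* rises in both, and *Slc16a6* rises by 2.64 in muscle.

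Fatty acid oxidation, which supplies the acetyl-CoA, was read by 13 genes. Like the other lists, this one was chosen with earlier results of these data known. Its counts are a description and no test against all probe sets. All 13 rose in liver from F16 to P4, with a median of +1.40 against -0.03 for all 15310 probe sets, of which 3529 rose and 5358 fell. From F22 to P1 12 of them rose (median +0.93), where 2268 of all probe sets rose and 3350 fell. Leaving out P1 replicate 1 also gave 12 rises (median +0.96), where 38.7% of all probe sets passed. From P1 to P4 0 rose and 7 fell, where 745 of all rose and 934 fell. Leaving out the same array gave 0 rises and 8 falls there, where 15.3% of all passed. *Cpt1a*, the enzyme that admits fatty acids to liver mitochondria, rose by 4.36 from F16 to P4, and *Acaa2*, *Hadh* and *Acadm*, enzymes of the oxidation spiral, rose by 1.93, 1.83 and 1.75. From P4 to P90 3 of the 13 rose and 7 fell, against 4407 and 4153 of all. Muscle showed 11 rises and 1 fall between F16 and P4 (median +0.32), against 4095 and 5360 of all (median -0.04), led by *Cpt1b*, the muscle form of the same enzyme, at +3.73.

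Of 5 regulators known to act on this pathway in liver, all rose there from F16 to P4 with a median of +1.61, where 58.0% of all probe sets passed and 3529 of 15310 rose. The list of regulators too was chosen with earlier results known, so that these counts are a description only. *Ppara*, the fatty acid receptor, rose by 2.12 (SE 0.0687, limma, adjusted p = 2.11e-17), *Ppargc1a* by 1.84, *Sirt3* by 1.61 and *Fgf21* by 0.99. In muscle, where 61.8% of all passed and 4095 rose, 2 of the 5 rose, *Ppara* by 1.52 and *Ppargc1a* by 1.00, and *Sirt3* (+0.07), *Fgf21* (-0.11) and *Foxa2* (-0.12) did not pass.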

How the data were processed

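RNA from 24 rat livers and 30 rat muscles was read on Affymetrix GeneChip arrays (Rat Gene ST). The deposited values are log2 signals that the authors made with RMA (background correction, quantile normalisation, median polish). Affymetrix Expression Console is the tool in the submitters' processing notes. RMA compresses changes near the background, and no detection values were used. Of 29214 probe sets, 15310 had 1 symbol in the platform annotation and were tested (323 had several, 13581 had none here). The main test used limma 3.58.1 (R 4.3.3), with 6 groups per tissue, no covariate and no filter, and p-values adjusted by Benjamini and Hochberg's method over all 15310. For pairs of time points picked by the order of a gene's means, this adjustment does not account for the choice of the pair. Tissue differences came from 1 fit of 54 arrays. The fits were tested on simulated data. In each tissue 100 of 15310 probe sets were changed by 0.5 and 100 by 1 at P4. Of the changes of 0.5, 80% were recovered in liver and 93% in muscle. Smaller changes were not simulated, and far more probe sets passed in the real data. The number of arrays limits the precision. Alternatives were another threshold, bright probe sets only, another prior, renewed quantile normalisation, median centring, the study's 5 time points alone, weights per array, a block for the replicate number, probe sets averaged by gene, the omission of single arrays and, chosen after seeing the data, of 10 arrays whose mean for markers of the other tissue was over 8.

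Named were the 4 genes, every measured gene of the pathway list, at most 4 genes of any other list by the size of the F16 to P4 change in a tissue, and the 3 genes with the highest Pearson's r per gene and tissue. A gene with several probe sets is described by its brightest one. *Alas2* was named after its values were seen. The members and lists were chosen with earlier results of these data known.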

Additional observations from a re-analysis of the deposited data

Results flagged for a closer look

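Changes that differed between liver and muscle by the test of the difference itself (liver minus muscle, limma, 54 arrays) are given here again as values. From F16 to P4 the difference was +1.069 for *Bdh1* (adjusted p = 8.67e-08), +0.3856 for *Acat1* (adjusted p = 0.000154) and -0.3825 for *Slc16a1* (adjusted p = 0.00199). From F22 to P1 it was +0.5993 for *Bdh1* (adjusted p = 0.00235) and -0.2694 for *Oxct1* (adjusted p = 0.0146). From F16 to F22 it was +0.2409 for *Acat1* (adjusted p = 0.0195). Dixon's test for a single array far from its group found 0 of the 48 groups of the 4 genes past its critical value, where chance gives about 1 in 20.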

How the results depend on the processing

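Not every pair of time points was repeated under the alternatives. Of 43 repeated results of the 4 genes that passed, 9 lost the call under some alternative. Of the sign changes (21 under other settings, 37 on leaving out an array) 0 concerned a result with a call. The *Slc16a1* liver range over time points was lost after renewed quantile normalisation (0.259, adjusted p = 0.0766), with the 5 time points alone (0.3237, limma, adjusted p = 0.0673) and with the replicate block (0.3237, adjusted p = 0.0508). The replicate numbers did not pair the samples (mean r of deviations 0.0017 in liver and -0.0167 in muscle), and the block also moved *Slc16a1* in muscle from F16 to F22 to an adjusted p of 0.0515. *Oxct1* in liver from F16 to P4 passed unadjusted and with 5 time points (-0.1821), after quantile normalisation (-0.2344) and centring (-0.2289), and its F22 to P1 fall was lost with array weights (-0.2395). For *Acat1* the tissue difference from F22 to P1 passed unadjusted (0.1774), after quantile normalisation (0.2724) and with array weights (0.242), and for *Slc16a1* unadjusted (-0.2195). In muscle from F16 to F22, *Bdh1* was lost on centring (0.2444), *Oxct1* with another prior, quantile normalisation (-0.0805) or 5 time points, and *Slc16a1* after quantile normalisation (-0.0929) or with 5 time points, as was the *Acat1* tissue difference after quantile normalisation (0.1418). Array weights also made calls for *Bdh1*, *Acat1* and *Slc16a1* in liver from F16 to F20 (0.2322, 0.1912 and 0.1698), 3 of 4 genes in place of 0, for *Slc16a1* in liver from F20 to F22 (-0.1644), and in muscle for *Bdh1* and *Slc16a1* from F18 to F20 (0.39 and 0.21) and *Bdh1* from F20 to F22 (-0.3004). Quantile normalisation made calls for *Bdh1* in liver from P4 to P90 (0.2385) and its tissue difference from F16 to F22 (0.3995), and *Slc16a1* in muscle from F18 to F20 passed among bright probe sets (0.1534) and on centring (0.1692). Without the 10 arrays bearing markers of the other tissue, *Oxct1* lost its muscle range over time points (0.1873), and signs near 0 changed for *Oxct1* (liver F20 to F22 0.0204, F16 to F22 0.0355, muscle F18 to F20 0.0237, F22 to P1 0.0157, tissue difference F16 to P4 0.0052), *Slc16a1* (muscle F16 to F18 -0.0089) and *Acat1* (muscle F20 to F22 0.043). Bright probe sets only gave no value for *Oxct1* and 2 in place of 4 pathway genes that fell in liver from F16 to P4. Signs near 0 changed after quantile normalisation for *Slc16a1* in liver (P4 to P90 0.1063, F16 to P4 0.0538), *Oxct1* (liver F16 to F22 0.0153, muscle F18 to F20 0.0474) and *Acat1* (muscle F20 to F22 0.0466). They changed on centring for *Slc16a1* (liver P4 to P90 0.013, muscle F16 to F18 -0.0321) and *Oxct1* (muscle F18 to F20 0.0123, F22 to P1 0.0065, tissue difference F16 to P4 0.0015), and with array weights for *Acat1* (liver P1 to P4 -0.0099, muscle F20 to F22 0.0414), *Slc16a1* (muscle F16 to F18 -0.0016) and *Oxct1* (muscle F18 to F20 0.0125). On leaving out single arrays, *Oxct1* in liver ran from -0.0137 to 0.0525 (F16 to F20), -0.0633 to 0.0204 (F20 to F22), -0.3324 to -0.2296 (F22 to P1), -0.0483 to 0.0355 (F16 to F22) and -0.2169 to -0.1443 (F16 to P4). *Slc16a1* in liver ran from -0.2459 to -0.0455 (F22 to P1), -0.0248 to 0.0862 (F16 to F22) and -0.0407 to 0.0156 (F16 to P4), and its range over time points from 0.2364 to 0.3971. From P1 to P4 in liver *Bdh1* ran from -0.0281 to 0.1417 and *Acat1* from -0.0389 to 0.062. In muscle *Slc16a1* ran from -0.0135 to 0.0222 (F16 to F18) and -0.014 to 0.0878 (F22 to P1), *Oxct1* from -0.0241 to 0.0097 (F18 to F20) and -0.0257 to 0.0157 (F22 to P1), and *Acat1* from -0.0174 to 0.018 (F20 to F22). Tissue differences ran from -0.3252 to -0.2225 (*Oxct1*), 0.1432 to 0.2441 (*Acat1*) and -0.2928 to -0.0924 (*Slc16a1*) over F22 to P1, and from -0.0448 to 0.0277 (*Oxct1*) over F16 to P4. Calls gained were *Bdh1* in liver from F16 to F20 without F16 replicate 2 (0.3052) or P1 replicate 1, *Acat1* there without F16 replicate 2 (0.2394), *Slc16a1* in liver from F16 to F20 and from F20 to F22 without P1 replicate 1, *Bdh1* in muscle from F16 to F18 without F16 replicate 1 or F20 replicate 2 and from F18 to F20 without F20 replicate 4, *Slc16a1* in muscle from F18 to F20 without P1 replicate 5, and the *Bdh1* tissue difference from F16 to F22 without liver F16 replicate 2 or muscle F20 replicate 2. The cause of these changes was not tested.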
